A study of Mus musculus with 9 samples.

Results

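Heat shock proteins and small chaperones were followed in mouse gastrocnemius, a calf muscle, by the probe sets of 7 genes out of 8251 genes named by the array. The genes were Hspa1a, Hspa1b, Dnajb1, Hspb1 and Cryab, treated as inducible by stress, and Hspa8 and Hspa5, treated as constitutive. They were chosen by gene family, with intensities from these arrays already known, so their levels across genotypes are given as a description and no p-value below is independent evidence for the choice. The 7 genes had 8 probe sets, 2 of them for Cryab, and 6 of the 8 passed the filter on low values. Hspb1 and 1 Cryab probe set did not pass it.

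RNA from individual mice was hybridised to Affymetrix U74Av2 arrays, 9 in all, covering 6 genotypes. The wild-type mice were of the strain labelled C57Bl/DBA2/129OLA-Ev, 1 female (wild-type 1) and 1 male (wild-type 2), both 7 weeks old. The other 7 mice were male, and the labels give them no strain: hDMD, which carries the full-length human DMD gene beside the mouse gene, at 11 weeks; mdx, which has a mutation in the mouse Dmd gene, at 15 and 13 weeks (mdx 1 and mdx 2); hDMD x mdx, the mdx mutation with the human gene, at 24 and 10 weeks (hDMD x mdx 1 and 2); mdx x utrn-/-, which lacks dystrophin and its homologue utrophin, at 5 weeks; and hDMD x mdx x utrn-/-, the same double deficiency with the human gene, at 9 weeks. Of the 6 genotypes, 3 had 1 mouse and 3 had 2, and age differs between and within genotypes, so age and genotype cannot be told apart where a genotype has 1 mouse. The mdx mice, at 15 and 13 weeks, were also both older than the wild-type mice, at 7 weeks, so age goes with genotype there too. The labels do not give the promoter, copy number or line of the human gene.

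Chaperones bind unfolded protein and help it fold, stay soluble or be degraded. HSP70 proteins do this in cycles of ATP hydrolysis that J-domain proteins such as Dnajb1 start, while small heat shock proteins such as Hspb1 and the crystallin Cryab hold unfolding protein without ATP and, in muscle, associate with the desmin and titin scaffold of the sarcomere. Heat shock factor switches on the inducible genes under heat, oxidation or exertion, and the unfolded protein response of the endoplasmic reticulum controls Hspa5.

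The sequence before a gene's start can hold sites for these controls, so the 250 bases before the annotated start are printed for the 3 genes the results turn on, from RefSeq on GRCm38.p6. Windows were found for 5 of the 7 genes, not for Hspa8 and Cryab. Hspa1a and Hspa1b lie on the minus strand of chromosome 17, with windows at chr17:34972157-34972406 and chr17:34959239-34959488, 12918 bases apart. Hspa5 lies on the plus strand, with its window at chr2:34771840-34772089. Capitals mark a pair of heat shock factor units (GAANNTTC or TTCNNGAA, each its own reverse complement, with N any base) in the Hspa1 genes and an endoplasmic reticulum stress element (CCAAT, 9 bases of any kind, CCACG, searched on both strands) in Hspa5.
Hspa1a: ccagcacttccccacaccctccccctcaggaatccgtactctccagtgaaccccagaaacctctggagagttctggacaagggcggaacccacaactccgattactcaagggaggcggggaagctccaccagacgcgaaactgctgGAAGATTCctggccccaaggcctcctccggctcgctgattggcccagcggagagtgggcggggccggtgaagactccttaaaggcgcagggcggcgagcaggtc
Hspa1b: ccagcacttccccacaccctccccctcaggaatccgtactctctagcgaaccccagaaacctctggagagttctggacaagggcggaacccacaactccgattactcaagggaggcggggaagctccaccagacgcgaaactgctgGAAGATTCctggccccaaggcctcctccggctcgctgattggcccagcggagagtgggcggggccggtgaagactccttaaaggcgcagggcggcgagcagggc
Hspa5: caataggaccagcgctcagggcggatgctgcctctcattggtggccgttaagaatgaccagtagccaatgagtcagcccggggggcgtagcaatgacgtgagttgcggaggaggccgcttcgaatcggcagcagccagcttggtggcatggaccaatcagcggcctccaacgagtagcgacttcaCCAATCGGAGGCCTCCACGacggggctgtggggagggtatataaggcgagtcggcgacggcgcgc
The Hspa1a and Hspa1b windows were 98.8% identical and differed at 3 bases, C44T, T47C and T249G, counted from 1 at the 5′ end of the window with the Hspa1a base first. Each held 1 match to GAANNTTC, which began 104 bases before the start, and none of the 3 differences lay within it. The Hspb1 window held 2 matches to GAANNTTC. Dnajb1 had 2 windows, and that at the annotated start, which was searched, held neither unit pair. Of all 32851 windows of this length in the table, 6.69% held GAANNTTC, 7.17% held TTCNNGAA and 12.8% held either. The Hspa5 window held 1 stress element, which began 65 bases before the start, and 0.113% of all windows held one. A match describes letters only, and the arrays did not measure binding.

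Levels are log2(normalised intensity + 16), for which a probe set with no signal above 0 sits at 4, and a difference of 1 on this scale understates the fold change of dim probe sets. Probe sets differ in binding, so levels were not compared between genes. On 3 arrays (wild-type 1, mdx 2 and hDMD x mdx 1) the bacterial control transcripts spiked into the hybridisation gave a median signal 6.18-fold above that of the other 6, and every genotype has 1 array in the low group. The actin 3′ to 5′ signal ratio, a sign of RNA length, was 1.20 to 1.87 on the 3 high arrays and 0.669 to 0.908 on the other 6, so differences that turned sign between these sets are also given within each. The summed signal of 10 skeletal muscle fibre markers was 18411 to 21777 on all 9 arrays. The mouse Dmd probe set lay at 4.95 or below on all 9 arrays, and each of the 2 utrophin probe sets lay, in the 2 utrn-/- mice, within its range over the other 7, so these probe sets do not check the labels. Nothing in the labels names a second sample from any mouse, and in whole muscle fewer cells of a type and less RNA per cell cannot be told apart.

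Hspa1a and Hspa1b, the 2 genes of the stress-inducible HSP70, were highest in the hDMD mouse. The Hspa1a level was 5.46 and 5.07 in wild-type 1 and 2, 8.04 in hDMD, 4.58 and 5.26 in mdx 1 and 2, 5.75 and 5.71 in hDMD x mdx 1 and 2, 6.23 in mdx x utrn-/- and 4.32 in hDMD x mdx x utrn-/-. The Hspa1b level, in the same order, was 4.60 and 4.87, then 7.85, then 4.01 and 4.83, then 5.02 and 4.94, then 5.28, then 4.82. The hDMD array stood 1.81 above the next highest array for Hspa1a and 2.57 above it for Hspa1b, and in both cases the next was mdx x utrn-/-. The 3 other mice with the human gene did not share these levels. On the hDMD array no other of 7453 probe sets tested stood as far above the next highest array as these, and 4 in all stood more than 1 above it. Single arrays elsewhere also held probe sets that stood apart: 10 in mdx x utrn-/- and 8 in wild-type 2 exceeded the next highest array by at least the Hspa1a gap.

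**Figure D1:**
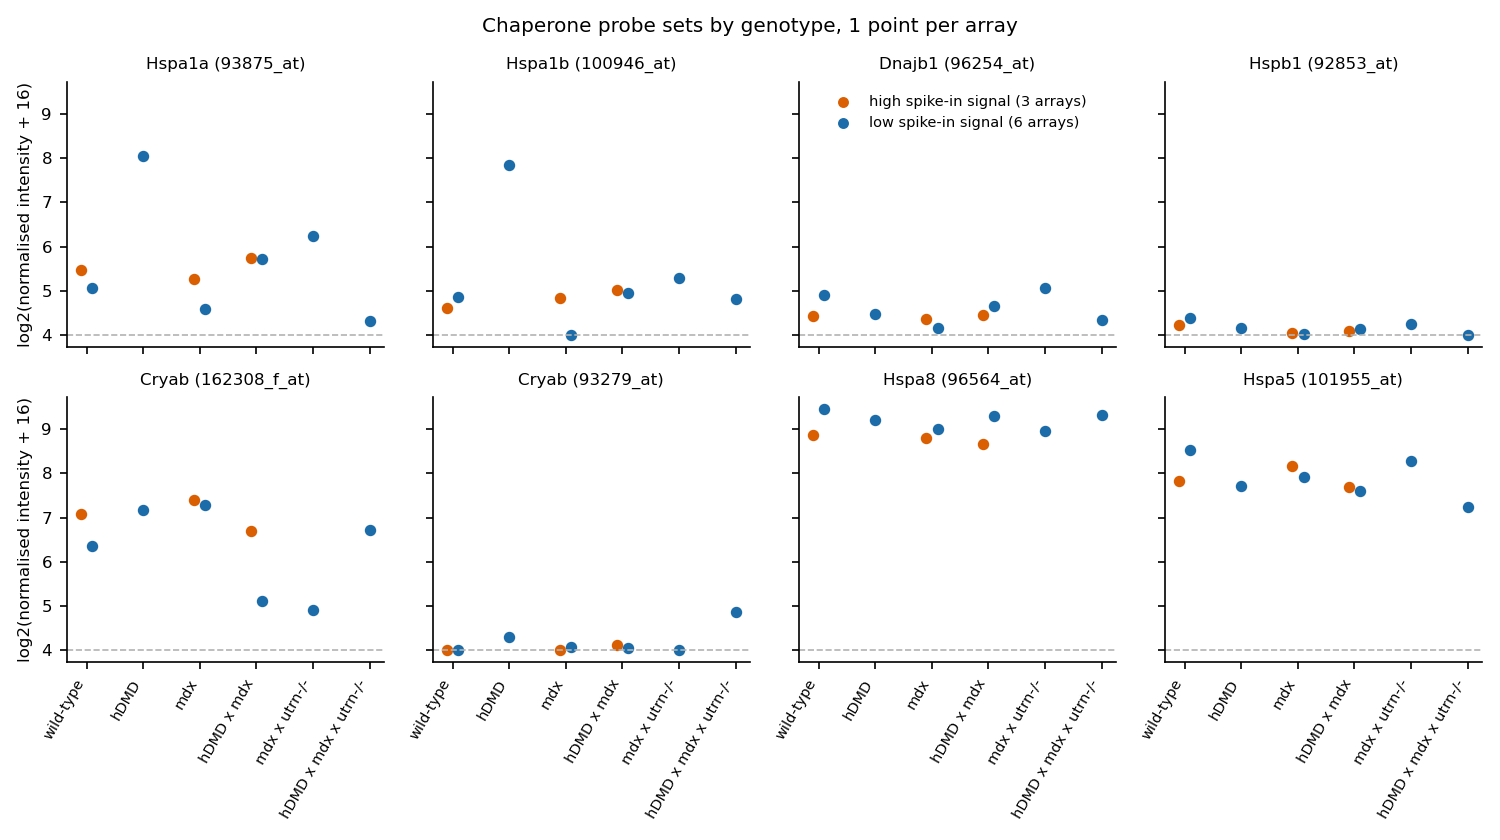
Level of each of the 8 chaperone probe sets, as log2(normalised intensity + 16), by genotype, with 1 point per array, coloured by the signal of the spiked control transcripts. The dashed line is the floor of 4. The hDMD array reached 8.04 for Hspa1a and 7.85 for Hspa1b, while Hspb1 and the second Cryab probe set lay near the floor.

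In the intensities as deposited, before normalisation, hDMD was also the highest of the 6 arrays of low control signal for both genes. There the Hspa1a intensity was 66.4 in hDMD, 5.5 in wild-type 2, 7.6 in hDMD x mdx 2, 2.2 in mdx 1, 13.3 in mdx x utrn-/- and 0.4 in hDMD x mdx x utrn-/-. The Hspa1b intensity, in the same order, was 57.0, 4.2, 3.1, -0.4, 5.3 and 1.7. These hDMD intensities were 12.1 times and 13.5 times those of wild-type 2. The wild-type 2 values lay near that array's median intensity of 3.40, and 23.7% of its intensities were 0 or negative. The ratios therefore rest on low values and are imprecise. Across all 9 arrays the order turns without normalisation: hDMD x mdx 1, an array of high control signal, then had the highest deposited intensity for both genes, 166.9 for Hspa1a and 72.2 for Hspa1b.

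The contrast of hDMD with wild-type was added after these values had been seen. Hspa1a was higher in hDMD by 2.78 ± 0.46 and Hspa1b by 3.11 ± 0.48 (log2 difference ± limma standard error, 1 mouse against 2). Of 7453 probe sets, none had a larger difference in either direction than Hspa1b and 4, Hspa1b among them, had a larger one than Hspa1a. Neither passed the test over all probe sets (unadjusted p = 0.000531 and 0.000325, adjusted p = 1 for both in limma), and in this comparison 0 probe sets did (0%) while 136 had an unadjusted p under 0.05. Against wild-type 2 alone, the male of low control signal, the difference was 2.98 for each gene. Under the alternative settings it ran from 1.22 to 3.42 for Hspa1a and from 1.63 to 4.23 for Hspa1b, the lowest on the deposited intensities with no normalisation. The 2 genes followed each other over the 9 arrays (Pearson r = 0.91, and 0.67 over the 8 arrays other than hDMD). Since Hspa1a and Hspa1b transcripts are close to identical, their probe sets may bind both, and the 2 signals are not independent measures of 2 genes.

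Other heat-induced genes had smaller differences between hDMD and wild-type. Dnajb1, the J-domain partner that heat shock factor induces together with HSP70, was at 4.48 in hDMD, between 4.43 and 4.91 in wild-type 1 and 2. In a list of 24 heat shock factors and heat-induced genes other than the 7, 17 were tested, 10 of them were higher in hDMD than in wild-type, and 0 passed the test. Their median difference was 0.05, beside 0.02 over all probe sets tested, and the largest was 0.81 for Chordc1, an HSP90 partner. Hsph1, the HSP110 exchange factor that recycles HSP70, was at 7.94 in hDMD, between 7.67 and 8.36 in wild-type. Hsp90aa1, the inducible HSP90, was at 7.12 in hDMD, between 6.33 and 7.37 in wild-type. Chordc1, Hsph1 and Hsp90aa1 were picked after their values were seen. The hDMD array was the highest of the 9 for 3 of the 17 genes, beside 8.75% of all probe sets tested. Of the 19 genes of the list with a promoter window, 8 held a heat shock unit pair, beside 14.5% of all genes of the table. That share describes how the list was chosen and is no result of these arrays.

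**Figure D2:**
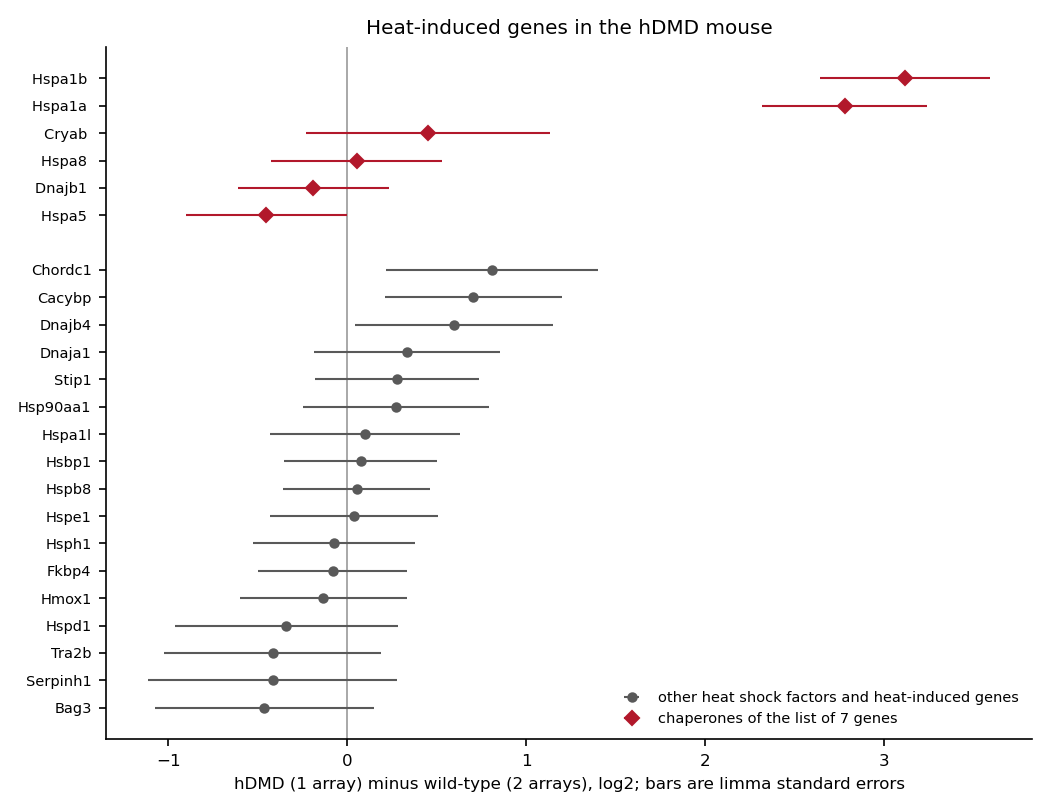
Difference between the hDMD array and the mean of the 2 wild-type arrays (log2, horizontal axis) for the 6 tested chaperone probe sets (diamonds) and 17 other heat shock factors and heat-induced genes (circles), with limma standard errors as bars. Hspa1b and Hspa1a lie at 3.11 and 2.78, and the other heat-induced genes between -0.46 and 0.81.

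In all but 2 of the pathway and marker lists the hDMD sum lay within the range of the other arrays. The summed intensity of the immediate early genes, which respond within minutes to stress or dissection, was 621 in hDMD and 390 to 1074 on the other 8 arrays. The macrophage sum was 399 against 315 to 2222, and the skeletal muscle fibre sum 21531 against 18411 to 21777. The vessel and smooth muscle sum, 421, lay below the 458 to 848 of the others. The summed HSP90 and co-chaperone list, 1973, lay above the 1504 to 1878 of the others. The hDMD actin 3′ to 5′ ratio of 0.714 lay within the range of the arrays of low control signal. With 1 hDMD mouse these values only describe the array. The part of dissection, cell content or RNA length in its Hspa1a and Hspa1b levels was not tested.

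Dnajb1 was dim throughout. Its level was 4.43 and 4.91 in wild-type 1 and 2, 4.48 in hDMD, 4.17 and 4.36 in mdx 1 and 2, 4.45 and 4.65 in hDMD x mdx 1 and 2, 5.05 in mdx x utrn-/- and 4.34 in hDMD x mdx x utrn-/-. It lay within 0.5 of the floor on 6 of 9 arrays, and was highest, like the second place of both Hspa1 genes, in mdx x utrn-/-. The SD between the 2 mice of a genotype was 0.34 in wild-type, 0.13 in mdx and 0.14 in hDMD x mdx.

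The small heat shock proteins gave less. Hspb1, HSP27, lay at 4.39 or below on all 9 arrays, so its level could not be followed, and it did not pass the filter. Cryab, alpha B crystallin, is abundant in slow and cardiac muscle, and its 2 probe sets disagreed (r = 0.19 over 9 arrays). The dimmer one lay at 4.31 or below on 8 arrays and at 4.87 in hDMD x mdx x utrn-/-. The brighter one, whose name carries the f suffix for probes shared within a sequence family, was at 7.09 and 6.35 in wild-type 1 and 2, 7.17 in hDMD, 7.28 and 7.39 in mdx 1 and 2, 6.69 and 5.13 in hDMD x mdx 1 and 2, 4.91 in mdx x utrn-/- and 6.72 in hDMD x mdx x utrn-/-. Both mdx arrays lay above all others, and the lowest levels were in mdx x utrn-/- and hDMD x mdx 2.

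For the brighter Cryab probe set hDMD x mdx was lower than mdx by 1.43 ± 0.56 (difference -1.43, 2 mice each, unadjusted p = 0.0375, adjusted p = 1 in limma), and the groups did not overlap. The difference was -0.71 between the arrays of high control signal and -2.15 between those of low, and -0.39 to -2.21 under the alternative settings. The slow fibre markers, as a summed intensity, were 1442 and 4749 in mdx 1 and 2 and 4547 and 2825 in hDMD x mdx 1 and 2. On the remaining arrays this sum was 5681 and 1558 in wild-type 1 and 2, 3728 in hDMD, 4246 in mdx x utrn-/- and 3572.5 in hDMD x mdx x utrn-/-. The contribution of fibre type was not tested.

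Of the constitutive genes, Hspa8, the HSP70 that every cell keeps for folding and for uncoating clathrin vesicles, spanned 0.78, the narrowest range of the 6 tested. Its level was 8.87 and 9.46 in wild-type 1 and 2, 9.22 in hDMD, 9.01 and 8.81 in mdx 1 and 2, 8.67 and 9.29 in hDMD x mdx 1 and 2, 8.96 in mdx x utrn-/- and 9.33 in hDMD x mdx x utrn-/-. The 3 arrays of high control signal (8.67 to 8.87) all lay below the 6 others (8.96 to 9.46). The groups overlapped in each comparison in which both sides had over 1 array.

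Hspa5, the HSP70 of the endoplasmic reticulum also known as BiP, had lower levels in the 3 mice with the human gene on a dystrophin-deficient background than in the 3 without it, a difference that did not pass the test. Its level was 7.92 and 8.17 in mdx 1 and 2 and 8.28 in mdx x utrn-/-, against 7.68 and 7.60 in hDMD x mdx 1 and 2 and 7.25 in hDMD x mdx x utrn-/-. These groups did not overlap. The wild-type arrays, 7.83 and 8.52, lay above all 3 mice with the human gene on a deficient background, and hDMD was at 7.72, between those 3 and wild-type. With utrophin genotype in the fit the difference was -0.61 ± 0.28 (3 mice each, adjusted p = 0.948 in limma), with -0.49 between the arrays of high control signal and -0.67 between those of low. It kept its sign under all 18 alternative settings, from -0.40 to -0.74, with adjusted p no lower than 0.462. Settings that changed only the filter or limma's prior could not alter the difference. Nor could leaving out a wild-type mouse or hDMD, which this fit does not use. The count of settings therefore does not measure how stable the difference is.

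Of the marker sums, those of macrophage, regenerating muscle and fibroblast genes separated the mice as Hspa5 did in this comparison. The other marker sums overlapped, such as adipocyte markers at 1175 to 3797 with the human gene and 1547 to 3100 without it. The macrophage sum of 11 genes was 353 to 513 in the 3 mice with the human gene and 1163 to 2222 in the 3 without it. The sum of 11 regenerating muscle markers was 959 to 1591 against 2610 to 3712, and that of 8 fibroblast markers 1858 to 2422 against 3024 to 3626. Their part in the Hspa5 result was not tested. Wild-type 2, which had the highest Hspa5 level, had a macrophage sum of 1681 against 315 in wild-type 1, and an adipocyte sum of 7876, the highest of the 9.

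**Figure D3:**
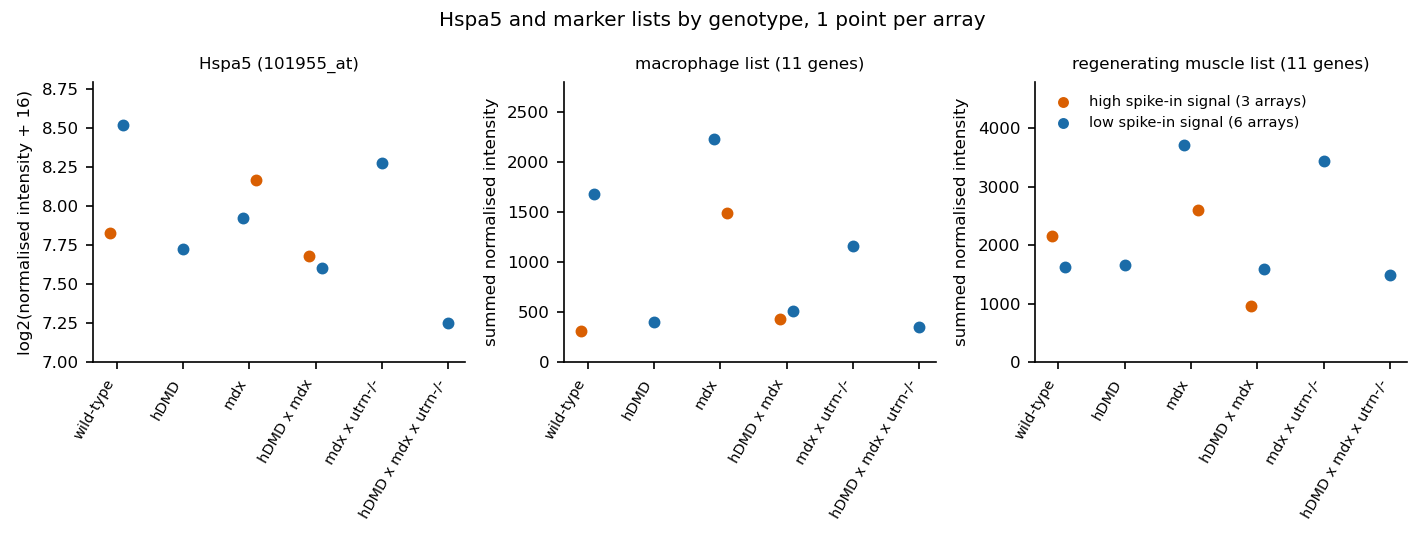
Hspa5 level, as log2(normalised intensity + 16), and the summed normalised intensity of 11 macrophage and 11 regenerating muscle markers, by genotype with 1 point per array, coloured by the signal of the spiked control transcripts. In the 3 mice with the human gene on a deficient background Hspa5 lay at 7.25 to 7.68, and the macrophage sum at 353 to 513.

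The neighbours of Hspa5 in the unfolded protein response gave mixed values. Of 31 genes on that list 20 were tested, and with the human gene on deficient backgrounds 7 of them were higher and 13 lower, with a median difference of -0.18 beside 0.02 over all probe sets tested. None passed the test. Manf, a secreted factor of the endoplasmic reticulum that is induced by the unfolded protein response, was at 6.86 and 6.60 in mdx 1 and 2 and 6.83 in mdx x utrn-/-. It was at 5.86 and 5.74 in hDMD x mdx 1 and 2 and 5.04 in hDMD x mdx x utrn-/-, a difference of -1.22 ± 0.30 with the human gene (adjusted p = 0.455 in limma). P4hb, a protein disulphide isomerase, went the other way at 0.60 ± 0.49 (adjusted p = 0.985), and it lay at the floor on 3 arrays. Of 26 genes of the list with a promoter window, 7 held the stress element printed for Hspa5, among them Hsp90b1, Calr and Canx, beside 0.13% of all genes of the table. Calr was not among the genes tested and lay at 4.19 or below on all arrays. The list was made up of genes of this response, so the share describes that choice and is no result of these arrays.

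The inducible and the constitutive genes were set against each other by array. Each gene's deviation from its mean over the 9 arrays was averaged over the 5 inducible and over the 2 constitutive genes. The inducible mean exceeded the constitutive by 1.16 in hDMD. On the other 8 arrays this shift lay between -0.58 in wild-type 2 and 0.31 in hDMD x mdx 1. In hDMD the inducible mean deviated by 1.15 and the constitutive by -0.01. The inducible mean there came from Hspa1a (2.44) and Hspa1b (2.71), which are not independent, and from Cryab (0.65), while Dnajb1 deviated by -0.06 and Hspb1 by 0.02. With Hspb1 and Cryab left out the shift there was 1.71. In wild-type 2 it was the constitutive genes that deviated, by 0.51. In the dystrophin-deficient mice the shift was -0.37 and -0.02 in mdx 1 and 2 and -0.19 in mdx x utrn-/-. Its sign turned in each of them under some setting: mdx 1 was at 0.29 with no normalisation, mdx 2 at 0.25 with Hspa5 left out, and mdx x utrn-/- at 0.29 with the small heat shock proteins left out. On the deposited intensities with no normalisation, hDMD x mdx x utrn-/- had nearly the same shift as hDMD, 1.08 against 1.12.

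**Figure D4:**
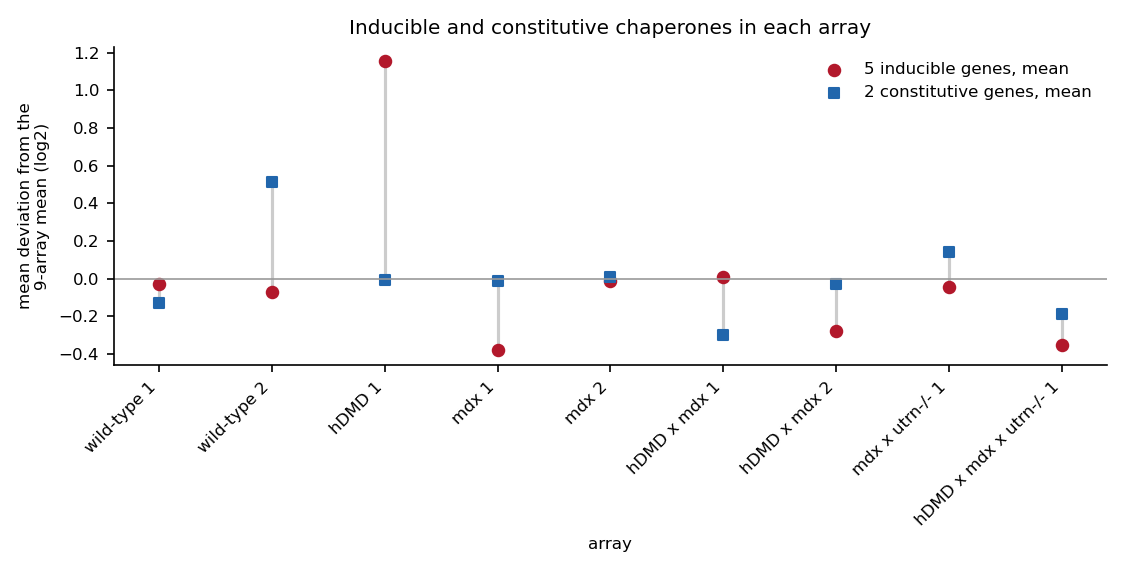
Mean deviation from the 9-array mean (log2, vertical axis) of the 5 inducible (circles) and the 2 constitutive genes (squares) on each array, joined by a line. The 2 classes lie 1.16 apart in hDMD and at most 0.58 apart elsewhere.

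No chaperone passed a test in any comparison of genotypes. Against the 6 arrays with mouse or human dystrophin, the 3 arrays without it differed by -0.37 ± 0.66 for Hspa1a, -0.64 ± 0.63 for Hspa1b, -0.02 ± 0.24 for Dnajb1, 0.00 ± 0.57 for Cryab, -0.21 ± 0.23 for Hspa8 and 0.36 ± 0.27 for Hspa5. With adjusted p = 0.999 for each, 0 of 6 passed, and 9 of all 7453 probe sets did (0.121%). Within the arrays of high and of low control signal, the difference was 0.02 and -0.98 for Hspa1b, -0.08 and 0.02 for Dnajb1, 0.51 and -0.25 for Cryab and 0.03 and -0.34 for Hspa8, while Hspa1a and Hspa5 kept their sign. Without the hDMD mouse the mean of the carrying arrays for Hspa1a was 5.26, beside 5.36 in the 3 lacking arrays, so that difference changed sign without it. In this comparison 0 of 6 chaperones had groups that did not overlap, beside 2.94% of all probe sets. At an unadjusted p under 0.05 the counts were 0 of 6 chaperones and 416 of all.

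For mdx against wild-type, 2 mice each, the differences were -0.35 ± 0.38 for Hspa1a, -0.32 ± 0.39 for Hspa1b, -0.40 ± 0.34 for Dnajb1, 0.62 ± 0.56 for Cryab, -0.26 ± 0.39 for Hspa8 and -0.13 ± 0.37 for Hspa5. No chaperone and no other probe set passed (0%), with 0 and 130 at an unadjusted p under 0.05 in limma. Dnajb1 and Cryab had groups that did not overlap, 2 of 6, beside 22% of all probe sets. The sign of the Hspa1b and Hspa5 differences was opposite in the high and the low arrays, 0.23 and -0.86 for Hspa1b and 0.34 and -0.60 for Hspa5.

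For hDMD x mdx against mdx, Hspa1a was higher by 0.81 ± 0.38, Hspa1b by 0.56 ± 0.39 and Dnajb1 by 0.29 ± 0.34, while Hspa8 differed by 0.08 ± 0.39 and Hspa5 by -0.40 ± 0.37. None passed (0% of all probe sets, adjusted p = 1 for each in limma), and 1 chaperone and 215 of all probe sets had an unadjusted p under 0.05. For 5 of 6 chaperones, all but Hspa8, the 2 mice of one genotype lay on one side of the 2 of the other, beside 27% of all probe sets. Hspa1a and Hspa1b in this count are not independent measures. Dnajb1 lay near the floor in these mice, at 4.17 to 4.65, and the groups overlapped for the dimmer Cryab probe set, which was not tested. Hspa8 differed by -0.13 between the arrays of high control signal and by 0.28 between those of low. This comparison shares the mdx mice with the one before it.

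For the human gene on deficient backgrounds the other differences were -0.10 ± 0.55 for Hspa1a, 0.22 ± 0.35 for Hspa1b, -0.05 ± 0.31 for Dnajb1, -0.35 ± 0.70 for Cryab and 0.17 ± 0.29 for Hspa8. Between the arrays of high and of low control signal the difference was 0.49 and -0.39 for Hspa1a, 0.09 and -0.11 for Dnajb1 and -0.13 and 0.32 for Hspa8. Again none passed (0%), with 0 chaperones and 409 of all at an unadjusted p under 0.05, and Hspa5 alone, 1 of 6, had groups that did not overlap, beside 10.5% of all probe sets. Loss of utrophin on the mdx background, 2 mice against 4, gave -0.81 ± 0.74 for Cryab and between -0.08 and 0.35 for the other 5, with adjusted p of at least 0.765 and 0% of all probe sets called, 440 of them at an unadjusted p under 0.05. These differences depend on which utrn-/- mouse is kept. Without mdx x utrn-/- the difference was 0.81 for Cryab and -1.41 for Hspa1a, and without hDMD x mdx x utrn-/- it was -2.42 and 1.31. Hspa1b, Dnajb1 and Hspa5 also turned sign between these fits. In the test for any difference among the 6 genotypes Hspa1a and Hspa1b had unadjusted p = 0.00199 and 0.0027 and adjusted p = 1 in limma, and 0 probe sets passed (0%), 220 at an unadjusted p under 0.05. Whether the human gene acts differently with and without utrophin rests on 1 mouse in each double mutant. That interaction was 2.73 ± 0.65 for Hspa1a and -3.24 ± 0.97 for Cryab (adjusted p = 1 for both), and 0 probe sets passed it.

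The other chaperone families gave no called gene in any comparison. Without dystrophin, the genes with the largest differences in each list were Dnajb5 (-1.29 ± 0.47) and Dnajb3 (-0.67 ± 0.54) among J-domain and HSP70 proteins, Hspb8 (0.25) and the lens crystallin Cryaa (-0.20) among small heat shock proteins, and Fkbp5 (-0.53) and Unc45a (-0.50), at the floor in mdx x utrn-/-, among HSP90 and its partners. They were Clpb (-0.52) and Hspa9 (-0.30) among mitochondrial chaperones and chaperonins, Stip1 (-0.49), which links HSP70 to HSP90, and Serpinh1 (0.48), the collagen chaperone HSP47, among heat-induced genes, and P4hb (-1.43 ± 0.65) and Manf (0.998 ± 0.262) in the endoplasmic reticulum. The lowest adjusted p among them was 0.383, for Manf. Like Unc45a, several of these genes reached the floor. Dnajb5 lay at it in mdx x utrn-/- and at 4.02 in mdx 2, and Dnajb3 lay at it in mdx 1. P4hb lay at it in mdx 1, mdx x utrn-/- and hDMD x mdx x utrn-/-, and Cryaa on the arrays of high control signal. Their differences rest in part on such values. Of the tested genes, 14 of 29, 1 of 3, 4 of 10, 9 of 18, 8 of 17 and 11 of 20 in these 6 lists were higher without dystrophin, beside 48.2% of all probe sets, and the medians ran from -0.11 to 0.09. Some genes stand in more than 1 list.

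The genes whose pattern was most like each chaperone were taken as the 3 highest Pearson correlations over the 9 arrays, after the means of the high and the low arrays were removed from both. They were searched over 6698 tested probe sets with 1 symbol and are given as likeness only, with no test. For Hspa1a they were Lpcat3 (0.95), Ube2l6 (0.95) and Elac2 (0.95), and for Hspa1b Upk2 (0.94), Pno1 (0.94) and Dcaf8 (0.93). For Dnajb1 they were Clic4 (0.96), Pbrm1 (0.96) and Sbno1 (0.96), and for Hspb1, near the floor, Cd320 (0.97), Clic4 (0.97) and Ptpn13 (0.94). For Cryab they were Nucks1 (0.97), Mab21l2 (0.95) and Ldb2 (0.94), for Hspa8 Rab7 (0.98), Krt6a (0.90) and Cdan1 (0.88), and for Hspa5 Itpr2 (0.97), Cd14 (0.97) and Psat1 (0.97). Cd14 also stands in the macrophage list. Hspa1a and Hspa1b had no gene in common in these lists. Some of these values rest on the removal of those means: without it Krt6a had a correlation of -0.21 with Hspa8, Sbno1 0.35 with Dnajb1, and Upk2 and Dcaf8 0.14 and 0.15 with Hspa1b. Others rest on hDMD: with the means removed but hDMD left out, Upk2 and Dcaf8 had correlations of -0.01 and 0.52 with Hspa1b.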

How the data were processed

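Per the labels' protocols, total RNA of frozen gastrocnemius was extracted with Trizol and RNeasy, copied with a T7-dT24 primer and labelled with an Enzo kit. The authors deposited 1 linear intensity per probe set and array for 9 arrays, and 19.4% to 29.9% of these in each array were 0 or negative. What expression measure, software or scaling they used was not given in the sources used here. Precision is limited by the number of arrays.

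Of 12488 probe sets, 66 controls were left out. Of the other 12422, 10833 had 1 gene symbol in GEO's platform annotation, 396 several and 1193 none. Intensities were quantile normalised, floored at 0, increased by 16 and taken to log2. The 7453 probe sets above the 40th percentile of mean level (4.46) were fitted with limma 3.58.1 in R 4.3.3 (lmFit, eBayes), two-sided, with Benjamini-Hochberg adjustment over all of them and a threshold of 0.05. Spread came from 3 residual degrees of freedom in the fit with 1 mean per genotype and from 7 in that of dystrophin class. No fit is quoted for Hspb1 and the dimmer Cryab probe set.

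The members, lists and comparisons were chosen with earlier results of these data known. Named genes are all member genes, the 3 most alike of each, and, where no list gene passed, the 2 of each list with the largest difference by dystrophin class. Chordc1, Hsph1, Hsp90aa1, Hsp90b1, Calr and Canx fall outside this rule and were named after their values or motif matches were seen. Alternatives were no normalisation, median scaling, no filter, pseudocounts of 1 and 64, a trended prior, brightness as a block, the dim arrays only, age as a covariate and each mouse left out. Only the fit of dystrophin class was tried on simulated data. These had the same spread for every probe set and no difference between arrays of high and low control signal, unlike the real arrays. The other fits were not simulated.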

Additional observations from a re-analysis of the deposited data

Results flagged for a closer look

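In the 6 mice that carry mouse or human dystrophin, Hspa1b in hDMD (7.85) stood apart from the others, the nearest of which was 5.02. The gap was 0.872 of the group's range, above Dixon's critical value for 6 samples. In the same 6 mice, the dimmer Cryab probe set in hDMD x mdx x utrn-/- (4.87) stood apart from the nearest, 4.31, by 0.647 of the range, on a probe set near the floor. These were 2 of 8 probe sets tested this way. The rate of about 1 chance flag in 20 holds for samples of 1 kind, while these 6 mice mix genotypes and arrays of high and low control signal. The hDMD level was also known before the test, so nothing about chance is concluded from the flags. For Hspa1a in hDMD the gap was 0.616 of the range, just under the critical value.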

How the results depend on the processing

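No chaperone passed the threshold in any of the 7 comparisons under any alternative that was run. The 9 probe sets called without dystrophin became 0 on deposited intensities with no normalisation, 2 with no filter and 1 with a pseudocount of 1, and 2 to 18 with 1 mouse left out, the lowest without hDMD, hDMD x mdx 2 or mdx x utrn-/- and the highest without wild-type 1. The 0 called for the human gene on deficient backgrounds became 1 with median scaling, 1 with a trended prior and 4 with brightness as a block. The causes were not tested. The differences of Hspa1a and Hspa1b between hDMD and wild-type moved to 1.22 and 1.63 on deposited intensities, 2.30 and 2.49 with median scaling, 1.85 and 1.90 with a pseudocount of 64 and 3.42 and 4.23 with 1. Over all comparisons 58 of 654 differences of chaperones moved by more than 1 SD, and no called value changed sign, since none was called. Part of the 654 could not move. No filter and a trended prior leave a difference as it is, as does leaving out a mouse that the difference does not use. The share that moved is therefore no measure of stability. The dim arrays alone could not be fitted for mdx against wild-type, hDMD x mdx against mdx, hDMD against wild-type or any difference among genotypes, and a genotype's lone mouse could not be left out of the last, nor hDMD out of its comparison with wild-type. No paired analysis was possible because the labels share no replicate numbers between groups. Signals near the floor (Hspb1, Dnajb1, the dimmer Cryab probe set) limit what can be seen.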
